A study of Mus musculus with 28 samples.

Results

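Luminal cells that carried GFP were compared with luminal cells that carried tdTomato, both sorted from the same untreated mice. The members are 8 of the 28 libraries of the series, a GFP+ and a tdTomato+ library from each of 4 mice, and were chosen by the subset, reporter and treatment given in the sample titles. The mice were adult C57BL/6 females of the genotype *PdgfrαCre R26mTmG*, and they received no hormone. *R26mTmG* is a membrane reporter in which every cell makes tdTomato until Cre recombinase switches it for good to GFP. *PdgfrαCre* is constitutive and driven by the regulatory region of *Pdgfra*, so GFP marks cells that expressed Cre at any time as well as their progeny, and both groups carry the same alleles. The luminal gate took EpCAM+ CD49f-low cells after CD31+, Ter119+ and CD45+ cells had been removed, and Sca1 was not part of it. The same sorts from 3 mice given pellets of estradiol and progesterone (E+P), 6 libraries in all, served as a second setting for the same contrast. The question behind the comparison is whether luminal cells with a *Pdgfra*-Cre history differ in their transcripts from the luminal cells around them.

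The mammary luminal layer holds secretory-lineage progenitors, which express the ETS factor Elf5 and the receptor tyrosine kinase Kit and give rise to milk-producing alveolar cells, and hormone-sensing cells, which express the receptors for estrogen, progesterone and prolactin. Hormone-sensing cells answer steroid hormone by secreting ligands such as amphiregulin, Wnt4 and RANKL that act on neighbouring epithelial cells, many of which lack these receptors. Notch signalling and the factors Gata3, Foxa1 and Elf5 are known to shape both fates. A sorted bulk library averages over its cells, so fewer cells of a kind and less RNA per cell cannot be told apart in any value given here.

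Between 8623383 and 22643378 reads were counted on genes in the 8 libraries, and 3 counts corresponded to between 0.128 and 0.335 CPM, the read count of a gene set against the TMM-scaled total of its library. This floor covers counting error only, since the reads carried no molecular identifiers. Between 20298 and 22303 genes had a count in a library. GFP+ libraries correlated with each other at a Pearson's r of 0.95 to 0.965 over log2 CPM, tdTomato+ libraries at 0.948 to 0.963, and the GFP+ and tdTomato+ libraries of the same mouse at 0.875 to 0.953, so the pair closest to each other was as alike as libraries of the same group. No 2 libraries were identical.

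Both groups carried the transcripts of luminal epithelium. *Krt8*, a keratin of simple epithelia, was present at 2262, 1478, 1714 and 1888 CPM in GFP+ cells of mice 1 to 4 and at 2183, 2038, 2216 and 1861 CPM in their tdTomato+ cells. *Epcam*, the surface protein of the gate, was present at 1065, 933, 847 and 937 CPM and 916, 819, 832 and 1047 CPM. The 2 groups overlapped for both genes, and neither passed the test (adjusted p = 0.22 and 0.62). Of the 12 genes of luminal identity, 2 were called (16.7%, against 16.6% of all genes tested). They were *Krt19* (log2FC -1.03) and *Krt7* (log2FC -0.91), which are keratins of luminal cells, and both were lower in GFP+ cells. Here and below, the log2 fold change (log2FC) is GFP+ over tdTomato+ and is followed by its SE after the sign ±. Adjusted p values come from the quasi-likelihood test of edgeR with the mouse as a block and Benjamini-Hochberg adjustment over all genes tested. A gene was called at an adjusted p under 0.01, and where a called gene has only a log2FC its adjusted p was under that threshold.

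Markers of other cell kinds were low. The summed level of the 11 basal epithelial genes was 91.7, 176, 92.1 and 110.9 CPM in GFP+ cells and 22.8, 15.6, 62.8 and 42.1 CPM in tdTomato+ cells. Of the 10 tested, 2 were called, both higher in GFP+ cells, the oxytocin receptor *Oxtr* and *Trp63*. The sum was higher in GFP+ cells of every mouse, by 4.02-fold, 11.3-fold, 1.47-fold and 2.63-fold in mice 1 to 4. At an adjusted p of 0.05, which 33.2% of all genes tested passed, 6 of the 10 passed, all higher. The median log2FC was 1.18. The keratin genes *Krt14* (log2FC 1.09, adjusted p = 0.022) and *Krt17* (log2FC 1.81, adjusted p = 0.047) and the contractile gene *Tagln* (log2FC 2.19, adjusted p = 0.011) were among the 6, with at most 7.14, 11.9 and 44.4 CPM in any library, and *Tagln* overlaps *Pcsk7* on the opposite strand at a mean of 46.9 CPM. *Krt5*, another basal keratin, was at most 1.21 CPM in any of the 8 libraries and had a log2FC of -0.41 (adjusted p = 0.76). The 12 fibroblast genes summed to 135, 96.1, 62.3 and 54.6 CPM in GFP+ and 24.4, 9.89, 102 and 11.4 CPM in tdTomato+ cells, against 44407, 31746, 58885 and 34032 CPM in the GFP+ stromal libraries of the same mice. Among the 11 tested, 1 was called, *Pdgfra* (9.09%, against 16.6% of all genes tested). The tdTomato+ library of mouse 3 stood apart from the other tdTomato+ libraries with the highest fibroblast sum and with 67.3 CPM over the muscle and pericyte genes, 1 of whose 5 tested members, *Mcam*, was called higher in GFP+ cells (log2FC 1.36 ± 0.26, adjusted p = 0.0044). Immune genes summed to at most 8.21 CPM in any library, with 0 of 3 tested called, MHC class II genes to at most 11.2 CPM, with 0 of 4 called, and adipocyte genes to at most 4.58 CPM, with 0 of 1 called. The endothelial sum was higher in tdTomato+ cells of every mouse, at 35.001, 40.5, 50.7 and 147 CPM against 12.3, 6.91, 22.8 and 16.6 CPM. *Vwf*, which encodes von Willebrand factor, supplied most of it at 32.3, 37.6, 47.9 and 142 CPM against 7.27, 2.90, 19.98 and 9.77 CPM (adjusted p = 0.011). The endothelial markers *Pecam1* and *Cdh5* reached at most 4.06 and 1.99 CPM, and both went the other way from the sum. In 2 of the 3 tested genes all 4 mice were higher in GFP+ cells, and the median log2FC was 0.442. Of the 3 endothelial genes tested 0 were called by edgeR and 1, *Vwf*, by DESeq2 and by limma-voom. At an unadjusted p under 0.05, edgeR gave 1 endothelial, 2 MHC class II, 0 immune and 0 adipocyte genes, and both other tools called 0 genes of the last 3 lists. The part of these cells in the results below was not tested beyond the values given.

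**Figure D1:**
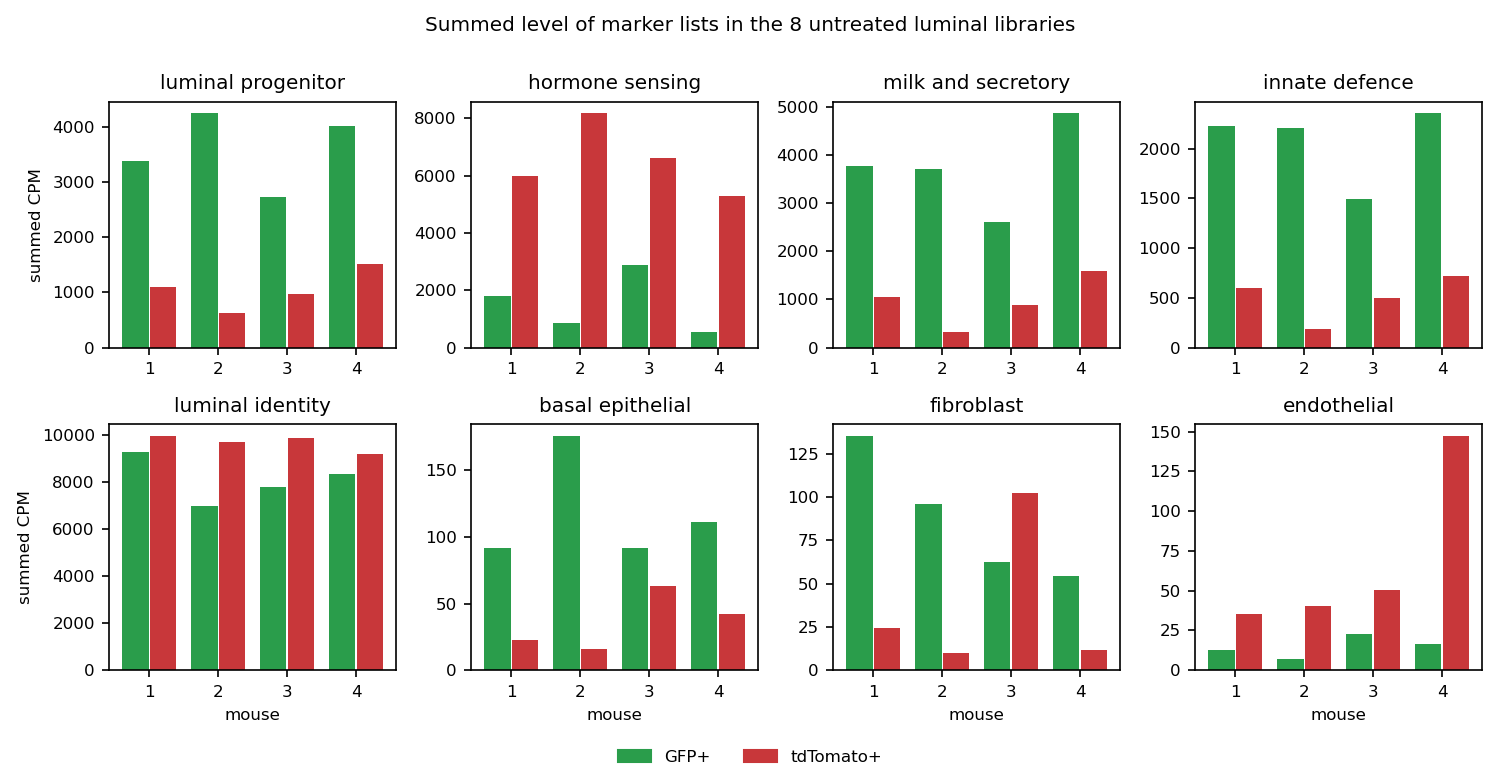
Summed CPM (y axis) of 8 marker lists in the GFP+ (green) and tdTomato+ (red) luminal library of each of 4 untreated mice (x axis). The progenitor, milk and innate defence sums are higher in the GFP+ bar and the hormone-sensing sum is higher in the tdTomato+ bar of every mouse, and the basal, fibroblast and endothelial sums stay at or below 176 CPM.

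Across the transcriptome, 2745 of 16538 genes tested were called (16.6%), 1281 of them higher (7.75%) and 1464 lower (8.85%) in GFP+ cells. The median log2 fold change over all genes tested was -0.0082. A change of at least 4-fold was found in 281 of the genes called higher and 212 of those called lower, and in 2741 of the called genes all 4 mice lay on the same side. The shares of all genes tested that did so, or whose 2 groups did not overlap, are not given here. Statements below that groups did not overlap, or that all 4 mice lay on the same side, describe the values of a gene. They are no further support for its call. The number of calls rested on mice 1 and 4, since 915 genes were called without mouse 1 and 940 without mouse 4, against 1912 without mouse 2 and 2333 without mouse 3. In every one of these 4 fits 636 genes were called. A fit of the 8 libraries alone, without those of the E+P-treated mice, called 745 genes. Of the genes described below, 128 were called, 31 of them also without any 1 of the mice, and the sign held in all 128. A kept sign was close to given, because nearly all called genes had the 4 mice on the same side. It does not make a call firmer. Without mouse 1, 87 of the 128 were no longer called, without mouse 2, 30, without mouse 3, 22, and without mouse 4, 83. In the fit of the 8 libraries alone 126 of them were tested and 80 were no longer called. Counted by direction, the 27 gene lists used below give 31 counts of calls above 0, of which 25, 7, 6 and 27 moved by more than 1.5 times without mouse 1, 2, 3 or 4. Of the 185 genes described, 42 overlap the annotated span of another tested gene, and in 17 of them that gene's mean level was over 10% of their own. The called genes among the 17 are *Stat5a*, *Erbb2*, *Nrg4*, *Wnt5b*, *Wnt7b*, *Tgfb3*, *Cebpb*, *Ccna2* and *Ccnd1*, each with its partner on the opposite strand. Whether the counting used strand is not given in the sources used here, so shared reads cannot be told apart for these genes. With scaling by library size only, the share of calls that were higher in GFP+ cells was 59.7% in place of 46.7%.

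**Figure D2:**
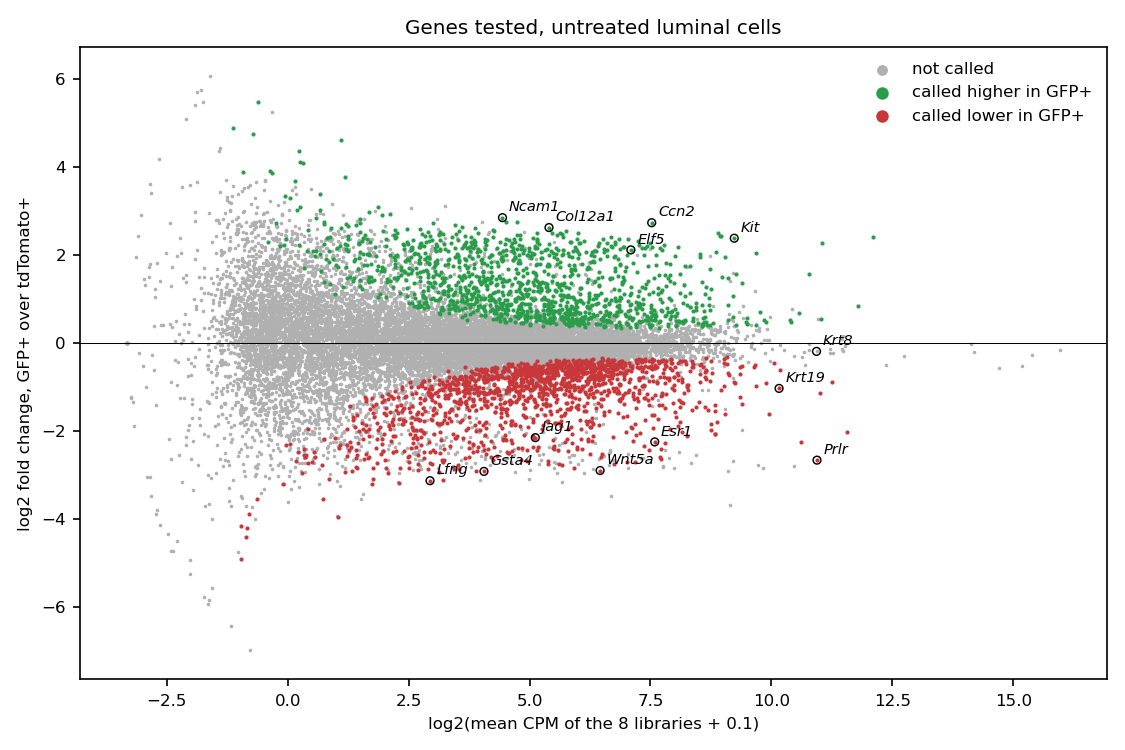
Log2 fold change of GFP+ over tdTomato+ luminal cells (y axis) against the log2 mean CPM of the 8 libraries plus 0.1 (x axis) for 16538 genes, with the 1281 genes called higher in green, the 1464 called lower in red and genes not called in grey. Circled genes are those labelled, with *Ncam1* and *Kit* among the genes called higher, *Lfng* and *Prlr* among those called lower, and *Krt8* near 0.

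The 12 genes with the largest increases, taken over called genes that reached a mean of 10 CPM in either group and lay on the same side in all 4 mice, were *Ncam1*, *Csn1s1*, *Oxtr*, *Ccn2*, *Slc6a15*, *Sirpa*, *Col9a1*, *Col12a1*, *Snorc*, *Slc16a7*, *Bcl11a* and *Ctnnd2*. *Ncam1*, which encodes a neural cell adhesion molecule, had 39.5, 60.9, 37.9 and 13.5 CPM in the GFP+ libraries of mice 1 to 4 and 7.91, 1.95, 8.47 and 2.60 CPM in the tdTomato+ libraries (log2FC 2.84 ± 0.44, adjusted p = 0.0034). *Ccn2*, a matricellular protein induced by YAP and TGF-beta, had 181, 708, 197 and 221 CPM and 33.1, 27.5, 48.6 and 56.0 CPM (log2FC 2.73 ± 0.47, adjusted p = 0.0054), with mouse 2 far above the other GFP+ libraries. *Oxtr*, the receptor through which oxytocin contracts myoepithelial cells, had 30.5, 73.3, 47.2 and 33.7 CPM and 6.45, 1.88, 8.79 and 10.2 CPM (log2FC 2.74 ± 0.55, adjusted p = 0.0094). The groups did not overlap for any of these 3 genes. *Oxtr* is also a gene of the basal list, and its increase stood beside 11.4, 31.4, 8.70 and 18.8 CPM in GFP+ and 2.33, 2.09, 7.99 and 5.59 CPM in tdTomato+ cells for the smooth muscle actin *Acta2*, which did not pass the test (adjusted p = 0.025).

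The collagen gene *Col12a1* had 96.2, 89.7, 55.7 and 46.3 CPM against 19.0, 2.96, 14.3 and 13.1 CPM and was 6.15-fold higher in GFP+ cells. Another, *Col9a1*, had 23.8, 22.3, 10.7 and 25.4 CPM against 5.23, 1.55, 1.84 and 5.46 CPM and was 6.16-fold higher, a call that held without any 1 of the mice. *Sirpa*, the receptor for the "do not eat me" ligand CD47, had 18.7, 19.6, 15.7 and 19.96 CPM and 2.67, 0.404, 5.27 and 4.78 CPM (log2FC 2.67 ± 0.54, adjusted p = 0.0094). The amino acid transporter gene *Slc6a15* (log2FC 2.73), the monocarboxylate transporter gene *Slc16a7* (log2FC 2.59), the catenin gene *Ctnnd2* (log2FC 2.55) and *Snorc* (log2FC 2.60) did not overlap between groups either. *Csn1s1* is described with the milk genes and *Bcl11a* with the transcription factors.

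The 12 largest decreases under the same rule were *Lfng*, *Ffar4*, *Shc2*, *Gsta4*, *Sprr1a*, *Wnt5a*, *Fgf13*, *Colgalt2*, *Slc24a3*, *Cdh13*, *Fam43a* and *Aoc1*. *Lfng*, the Fringe glycosyltransferase that alters which ligands Notch responds to, had 1.38, 0.781, 4.10 and 0.519 CPM in GFP+ cells and 9.36, 20.3, 13.2 and 11.0 CPM in tdTomato+ cells (log2FC -3.12 ± 0.51, adjusted p = 0.003). *Gsta4*, a glutathione transferase for lipid peroxidation products, had 3.32, 2.90, 5.73 and 2.07 CPM and 20.8, 50.6, 12.6 and 34.3 CPM (log2FC -2.91 ± 0.50, adjusted p = 0.0047). *Ffar4*, a receptor for long-chain fatty acids, had 2.22, 0.446, 7.25 and 0.346 CPM and 20.6, 17.5, 16.8 and 7.81 CPM (log2FC -3.11 ± 0.62, adjusted p = 0.0075). Each of the 3 was lower in every GFP+ library than in any tdTomato+ library.

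*Wnt5a*, a ligand of non-canonical Wnt signalling, showed how far mouse 3 departed from the other GFP+ libraries, with 11.8, 12.4, 86.3 and 7.17 CPM in GFP+ and 73.0, 203, 209 and 99.7 CPM in tdTomato+ cells (log2FC -2.89 ± 0.49, adjusted p = 0.0051). It was lower in GFP+ cells of all 4 mice, but the GFP+ library of mouse 3 lay above the tdTomato+ library of mouse 1. *Aoc1*, a diamine oxidase, was carried by mice 2 and 3, with 0.0692, 2.68, 7.81 and 0.259 CPM and 0.814, 51.7, 26.3 and 0.683 CPM (log2FC -2.77 ± 0.57, adjusted p = 0.0072). *Fam43a* (log2FC -2.83), the calcium exchanger gene *Slc24a3* (log2FC -2.86), the cadherin gene *Cdh13* (log2FC -2.85), the adaptor gene *Shc2* (log2FC -2.93), *Colgalt2* (log2FC -2.86) and *Fgf13* (log2FC -2.88) did not overlap between groups. *Sprr1a*, a cornified envelope gene, did overlap (log2FC -2.90 ± 0.54, adjusted p = 0.0064).

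Genes of luminal progenitors were higher in GFP+ cells. The authors had reported this from the same series for *Elf5*, *Kit*, *Notch1* and *Aldh1a3*, all members of the list, so its counts are not an independent finding. Of the 10 listed and tested, 8 were called, all higher, with a median log2 fold change of 2.04, and all 10 were higher in all 4 mice. *Elf5* (ENSMUSG00000027186.14, chr2:103411688-103450989 on GRCm38), which drives secretory differentiation, had 200.004, 185, 178 and 309 CPM in GFP+ cells and 47.7, 22.4, 52.7 and 98.6 CPM in tdTomato+ cells (log2FC 2.11 ± 0.25, adjusted p = 0.0015). *Kit* (ENSMUSG00000005672.12, chr5:75574916-75656722), the receptor for stem cell factor, had 832, 1279, 873 and 1006 CPM and 206, 83.5, 221 and 308 CPM (log2FC 2.38 ± 0.40, adjusted p = 0.0051). *Cd14*, the lipopolysaccharide co-receptor used to isolate these progenitors, had 125, 236, 145 and 169 CPM and 32.3, 21.7, 43.5 and 49.0 CPM (log2FC 2.21 ± 0.31, adjusted p = 0.0028). For all 3 genes the lowest GFP+ library was above the highest tdTomato+ library.

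*Sox10* (log2FC 2.18), a factor of neural crest that also marks mammary progenitors, the ETS factor gene *Ehf* (log2FC 1.68), the tetraspanin gene *Tspan8* (log2FC 2.30) and *Notch1* (log2FC 1.11) did not overlap between groups, and *Itga2* did (log2FC 0.70). *Aldh1a3*, an enzyme of retinoic acid synthesis, had 899, 821, 355 and 572 CPM and 266, 60.6, 127 and 274 CPM and just missed the threshold (adjusted p = 0.011), as did *Itgb3* (adjusted p = 0.014). *Elf5*, *Ehf* and *Notch1* were called without any 1 of the mice, but the list had 3 calls without mouse 1 and 3 without mouse 4.

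**Figure D3:**
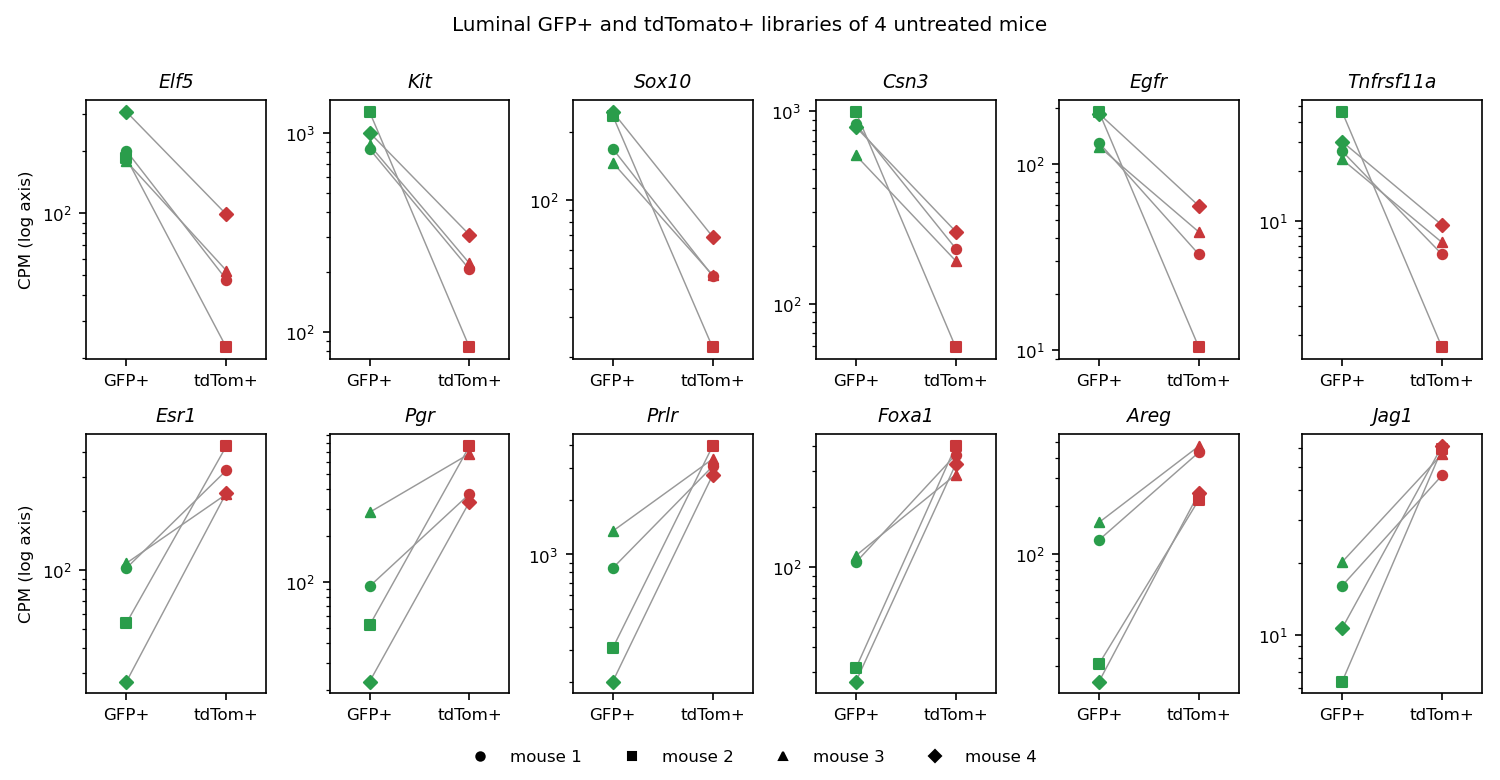
CPM on log axes (y axis) of 12 genes in the GFP+ and tdTomato+ luminal libraries (x axis) of 4 untreated mice, with a symbol for each mouse and a line joining the pair. *Elf5*, *Kit*, *Sox10*, *Csn3*, *Egfr* and *Tnfrsf11a* have the lower value, and *Esr1*, *Pgr*, *Prlr*, *Foxa1*, *Areg* and *Jag1* the higher value, in the tdTomato+ library of every mouse. *Pgr* is drawn although it was not called.

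Genes of hormone-sensing cells were lower in GFP+ cells, which the authors had reported from the same series for *Esr1* and *Pgr*, both members of the list. Of the 16 listed and tested, 7 were called, all lower (43.8%, against 16.6% of all genes tested). At an adjusted p of 0.05, a threshold that 33.2% of all genes tested passed, 13 passed. The median log2 fold change was -2.44. *Prlr*, the prolactin receptor and the most abundant member, had 841, 306, 1343 and 200.2 CPM in GFP+ cells and 3048, 3937, 3344 and 2729 CPM in tdTomato+ cells (log2FC -2.66 ± 0.50, adjusted p = 0.0075). *Esr1* (ENSMUSG00000019768.16, chr10:4611593-5005614), the estrogen receptor, had 103, 53.8, 109 and 27.0 CPM and 323, 430.4, 245 and 248 CPM (log2FC -2.24 ± 0.39, adjusted p = 0.0055). The groups did not overlap for either, and mouse 4 had the lowest and mouse 3 the highest level of both among the GFP+ libraries.

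*Pgr* (ENSMUSG00000031870.16, chr9:8899833-8968611), the progesterone receptor, had 93.8, 52.4, 284 and 22.6 CPM and 373, 764, 682 and 332 CPM, groups that did not overlap, and its adjusted p of 0.0102 was just over the threshold. *Foxa1*, the pioneer factor for estrogen receptor binding, had 105, 31.2, 114 and 26.8 CPM and 362, 400.3, 289 and 326 CPM (log2FC -2.58 ± 0.52, adjusted p = 0.0096). The other factor genes called were *Tbx3* (log2FC -1.75) and *Msx2* (log2FC -2.76). Among the ligand genes, *Areg*, which encodes amphiregulin, had 123, 20.6, 158 and 16.0 CPM and 433, 219, 473 and 240.4 CPM (log2FC -2.64) and *Wnt4* had 28.7, 4.80, 37.3 and 10.2 CPM and 107, 78.3, 84.4 and 91.3 CPM (log2FC -2.46). *Tnfsf11*, which encodes RANKL, was at or below 0.988 CPM in every library and was not called (adjusted p = 0.58).

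*Cited1* (adjusted p = 0.011), *Prom1* (0.012), *Ly6a* (0.011), which encodes Sca1, *Stc2* (0.021) and the estrogen target *Greb1* (0.034) had log2 fold changes from -1.96 to -2.54 without passing the threshold. *Xbp1* had a log2 fold change of -0.22 (adjusted p = 0.32). The 16 genes summed to 1800, 844, 2867 and 549.6 CPM in GFP+ and 5985, 8171, 6627 and 5295 CPM in tdTomato+ cells, so the tdTomato+ sum was 3.32-fold, 9.68-fold, 2.31-fold and 9.63-fold that of the GFP+ cells in mice 1 to 4. The progenitor genes summed to 3384, 4248, 2729 and 4016 CPM and 1091, 628, 963 and 1524 CPM, a GFP+ excess of 3.1-fold, 6.76-fold, 2.83-fold and 2.64-fold. The 7 hormone-sensing calls were not stable to the choice of mice, with 0 called without mouse 1, 0 without mouse 2, 10 without mouse 3 and 1 without mouse 4. The direction held in every fit for each of the 7, which was close to given for called genes, as said above.

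The promoters of *Elf5* and *Kit*, higher in GFP+ cells, and of *Esr1* and *Pgr*, lower in all 4 mice though *Pgr* missed the threshold, are shown because these genes define the progenitor and hormone-sensing lists. Each window runs from 250 bases before to 50 after an annotated start, 5′ to 3′, from RefSeq on GRCm38.p6, and capitals mark matches on either strand to AGGAAG (an ETS core), TGTTTAC (forkhead), AGGTCA (the repeated unit of an estrogen response element), TTCNNNGAA (STAT) or TGTGGT (Runt).
*Elf5*, chr2:103411848-103412147, + strand: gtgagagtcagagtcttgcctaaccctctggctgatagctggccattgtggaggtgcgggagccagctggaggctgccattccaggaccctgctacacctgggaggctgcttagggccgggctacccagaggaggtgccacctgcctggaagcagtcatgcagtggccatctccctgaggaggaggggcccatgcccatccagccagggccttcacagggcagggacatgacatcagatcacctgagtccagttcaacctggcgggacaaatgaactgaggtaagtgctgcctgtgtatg
*Kit*, chr5:75574737-75575036, + strand: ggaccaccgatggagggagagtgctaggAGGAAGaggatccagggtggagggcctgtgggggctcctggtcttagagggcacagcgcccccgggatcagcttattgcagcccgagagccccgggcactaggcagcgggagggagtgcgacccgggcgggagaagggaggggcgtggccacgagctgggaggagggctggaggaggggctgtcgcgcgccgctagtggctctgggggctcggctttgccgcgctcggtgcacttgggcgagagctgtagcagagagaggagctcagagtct
*Esr1*, chr10:4611739-4612038, + strand: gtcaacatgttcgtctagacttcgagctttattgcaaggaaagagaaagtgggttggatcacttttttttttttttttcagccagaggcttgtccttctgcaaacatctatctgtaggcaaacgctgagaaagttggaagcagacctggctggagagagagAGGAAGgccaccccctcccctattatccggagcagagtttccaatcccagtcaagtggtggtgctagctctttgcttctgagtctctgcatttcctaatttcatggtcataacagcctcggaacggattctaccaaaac
*Pgr*, chr9:8899583-8899882, + strand: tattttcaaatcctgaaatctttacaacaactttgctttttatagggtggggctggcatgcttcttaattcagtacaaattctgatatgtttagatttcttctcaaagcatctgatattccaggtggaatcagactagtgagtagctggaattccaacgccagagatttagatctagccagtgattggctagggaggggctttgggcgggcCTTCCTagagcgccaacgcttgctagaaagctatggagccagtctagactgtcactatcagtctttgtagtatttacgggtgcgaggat

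The ETS core stood once in each of the *Kit*, *Esr1* and *Pgr* windows, starting 222, 89 and 39 bases before the start, on the opposite strand in *Pgr*, and the *Elf5* window held none of the 5 motifs. Over the first promoter given for each gene, AGGAAG was found in 34.3% of 945 genes called higher, 30.8% of 1126 called lower, 32.4% of 10746 tested and 35.1% of all 27025. The forkhead motif was found in 2.96%, 3.2%, 2.44% and 3.55%, the estrogen response element unit in 12.2%, 11.5%, 12.2% and 16.0%, the STAT motif in 5.93%, 5.95%, 6.86% and 8.47%, and the Runt motif in 13.0%, 10.2%, 12.1% and 16.9%, in the same order. These shares are descriptions of letters in short windows. *Elf5*, *Kit* and *Esr1* each have a second promoter in the table, which was not searched.

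Milk and secretory genes were mostly higher in GFP+ cells, with a median log2FC of 2.14. Among the 14 tested, 11 were called, all higher (78.6%, against 16.6% of all genes tested). The count was 3 without mouse 1 and 1 without mouse 4. *Csn3*, the kappa-casein gene, had 854, 989, 588 and 826 CPM in GFP+ cells and 193, 59.2, 167 and 236 CPM in tdTomato+ cells (log2FC 2.42 ± 0.42, adjusted p = 0.0053). *Mfge8*, which encodes a milk fat globule protein, had 1306, 1294, 959.7 and 1658 CPM and 393, 128, 323 and 535 CPM (log2FC 2.05 ± 0.30, adjusted p = 0.0031). *Plin2*, which coats lipid droplets, had 138.4, 99.8, 90.3 and 126 CPM and 37.7, 19.5, 36.1 and 50.8 CPM (log2FC 1.71 ± 0.22, adjusted p = 0.0014). None of the 3 overlapped between groups.

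The other caseins came almost wholly from mouse 4. *Csn1s1* had 1.80, 0.558, 2.08 and 152 CPM in GFP+ cells of mice 1 to 4 and 0.0581, 0, 0.479 and 24.7 CPM in tdTomato+ cells, and *Csn2* had 0.138, 0, 0 and 92.6 CPM and 0.0581, 0, 0 and 19.8 CPM. *Csn1s2a* reached 8.56 CPM in the GFP+ library of mouse 4 and at most 0.469 CPM elsewhere. All 3 were called (log2FC 2.76 ± 0.38, adjusted p = 0.0022 for *Csn1s1*), but outside mouse 4 most of these values lie near or below the level of 3 counts. *Lalba* (log2FC 2.47 ± 0.44, adjusted p = 0.0037), which encodes alpha-lactalbumin, was highest in mouse 4 as well, at 41.5 CPM in GFP+ and 6.57 CPM in tdTomato+ cells. The genes for lactoferrin (*Ltf*, log2FC 1.96), xanthine dehydrogenase (*Xdh*, log2FC 2.16), butyrophilin (*Btn1a1*, log2FC 2.07) and the whey acidic protein family member *Wfdc18* (log2FC 2.11) were higher in all 4 mice.

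Of 12 prolactin signalling genes tested, 5 were called higher and 4 lower in GFP+ cells (75.0% called, against 16.6% of all genes tested). The receptor *Prlr* (above), the kinase gene *Jak2* and *Stat5a* were lower in GFP+ cells, whereas *Stat5b*, the closest relative of *Stat5a*, did not pass (log2FC -0.03 ± 0.08, adjusted p = 0.78). *Jak2* had 93.4, 81.1, 145 and 77.7 CPM in GFP+ and 196, 263, 292 and 181 CPM in tdTomato+ cells (log2FC -1.25), and *Stat5a* had 66.9, 66.4, 105 and 91.7 CPM and 122, 122, 153 and 122 CPM (log2FC -0.67). Neither overlapped between groups. The annotated span of *Stat5a* overlaps that of *Stat3* on the opposite strand.

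Of the targets, *Cish*, a feedback inhibitor induced by STAT5, was higher in GFP+ cells, with 23.5, 40.0, 27.8 and 65.3 CPM and 15.1, 11.7, 14.4 and 29.5 CPM (log2FC 1.12), and the feedback inhibitor *Socs3* was lower (log2FC -1.31). *Tnfrsf11a*, which encodes RANK, the receptor for RANKL, had 26.5, 46.1, 23.6 and 30.3 CPM and 6.22, 1.68, 7.35 and 9.39 CPM (log2FC 2.41 ± 0.47, adjusted p = 0.0078). *Id2* (log2FC 1.59 ± 0.13, adjusted p = 0.00067), *Ccnd1* and *Elf5* were the other genes called higher. The groups did not overlap for *Tnfrsf11a* or *Id2*.

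Of 15 Notch pathway genes tested, 5 were called higher and 2 lower in GFP+ cells (46.7% called, against 16.6% of all genes tested). The receptor gene *Notch1* had 466, 607, 410.1 and 675 CPM in GFP+ and 254, 195, 230.3 and 316 CPM in tdTomato+ cells (log2FC 1.11 ± 0.16, adjusted p = 0.0016). *Notch2* had 204, 246, 157 and 237 CPM and 117, 108, 105 and 121 CPM (log2FC 0.89 ± 0.12, adjusted p = 0.0013). The target *Hey1* had 92.1, 185, 73.6 and 118 CPM and 28.7, 20.2, 25.8 and 31.9 CPM (log2FC 2.06 ± 0.28, adjusted p = 0.0022), and the targets *Hey2* (log2FC 2.34) and *Nrarp* (log2FC 1.62) were higher in GFP+ cells too. The ligand gene *Jag1* was lower, with 16.0, 6.36, 20.1 and 10.6 CPM in GFP+ and 46.3, 59.6, 56.7 and 61.3 CPM in tdTomato+ cells (log2FC -2.15 ± 0.28, adjusted p = 0.0016), as was *Lfng*. The groups did not overlap for these genes, which were picked because they were called. The ligand gene *Dll1* (log2 fold change 2.48, adjusted p = 0.022) and *Notch3* (0.45, 0.022) did not pass, nor did the DNA-binding partner *Rbpj* (-0.12, 0.44) or the target *Hes1* (-0.52, 0.13).

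**Figure D4:**
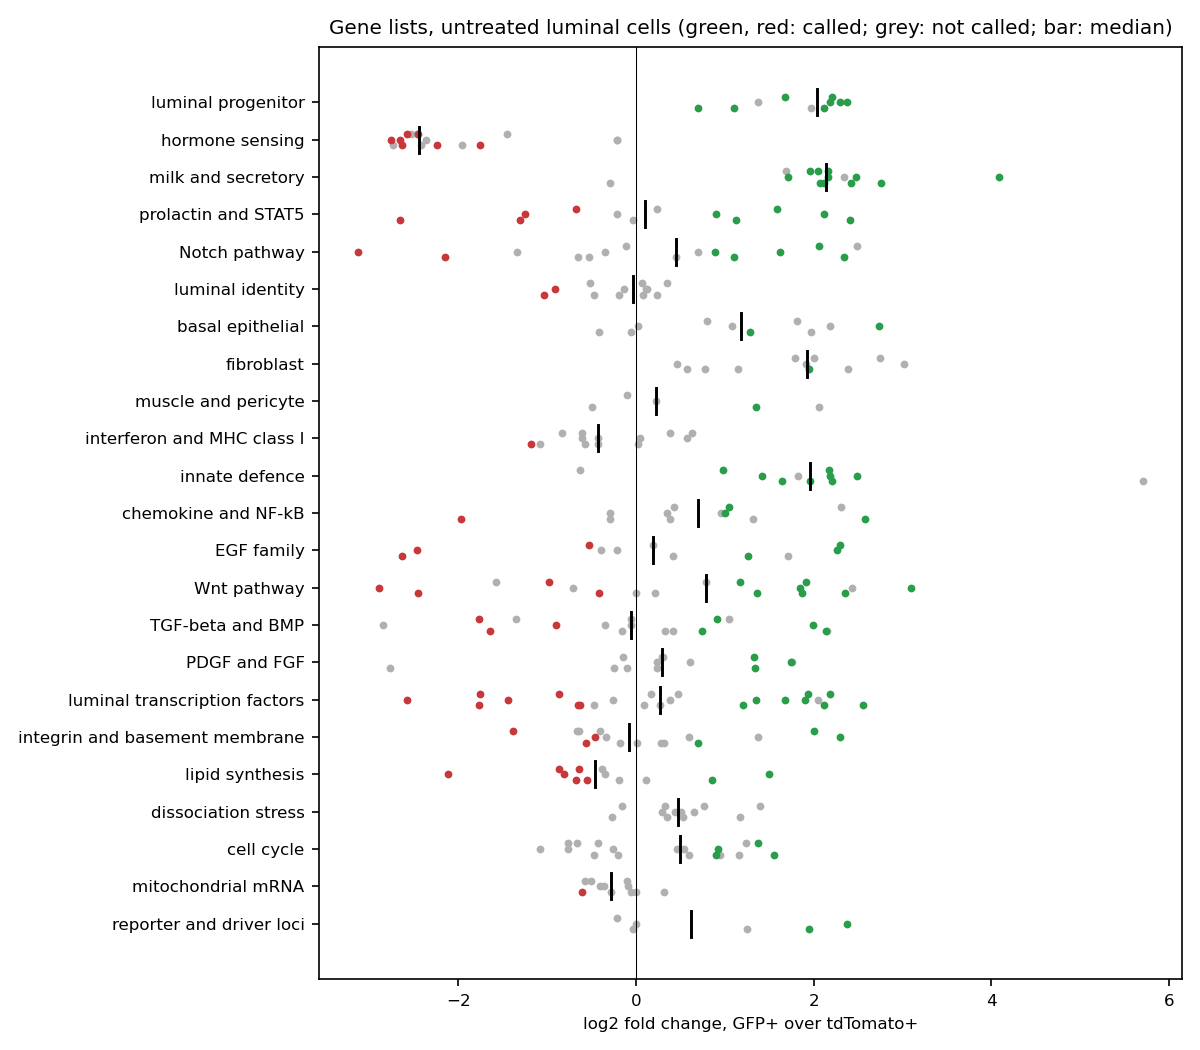
Log2 fold change of GFP+ over tdTomato+ luminal cells (x axis) for the tested genes of 23 lists (y axis), a point for each gene, green where called higher, red where called lower and grey where not called, with a bar at the list's median. Medians of 2.04, 2.14 and 1.96 for the progenitor, milk and innate defence lists stand against -2.44 for the hormone-sensing list, and the prolactin, Notch, EGF family and Wnt lists, among others, hold genes called in both directions.

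Of 11 EGF family genes tested, 3 were called in each direction (54.5% called, against 16.6% of all genes tested). The receptor gene *Egfr* had 129.7, 189.8, 123.6 and 186 CPM in GFP+ and 32.7, 10.4, 43.1 and 59.5 CPM in tdTomato+ cells (log2FC 2.26 ± 0.45, adjusted p = 0.009). Its relative *Erbb4* had 81.3, 137, 62.8 and 94.5 CPM and 20.1, 9.96, 15.6 and 33.1 CPM (log2FC 2.29 ± 0.45, adjusted p = 0.0086). Neither overlapped between groups. *Erbb2*, which has no known ligand of its own and pairs with the other receptors, was lower by a smaller margin (log2FC -0.53 ± 0.10, adjusted p = 0.0044), and it overlaps *Mien1* on the opposite strand, which was also called lower (log2FC -1.12). Of the ligand genes, *Hbegf* was higher (log2FC 1.26) and *Areg* and *Nrg4* (log2FC -2.46) were lower, and *Nrg4* overlaps *Fbxo22* on the opposite strand, which changed in the same direction.

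Of 17 Wnt pathway genes tested, 7 were called higher and 4 lower (64.7% called, against 16.6% of all genes tested). The ligand gene *Wnt5b* had 122, 162, 125 and 190.0 CPM in GFP+ and 34.4, 7.34, 35.2 and 57.8 CPM in tdTomato+ cells (log2FC 2.36 ± 0.46, adjusted p = 0.0088), and its close relative *Wnt5a* was lower (above). The Frizzled receptor genes *Fzd1* (log2FC 1.84) and *Fzd5* (log2FC 1.17), the R-spondin receptor genes *Lgr4* (log2FC 1.36) and *Lgr5* (log2FC 3.10), *Rspo1* (log2FC 1.87) and the feedback target *Axin2* (log2FC 1.91) were higher. *Lgr5* was at 5.26, 17.6, 2.58 and 0.778 CPM in GFP+ cells and 0.581, 0.74, 0.639 and 0.171 CPM in tdTomato+ cells, so mouse 2 gave most of it. *Wnt4*, *Wnt7b* (log2FC -0.98) and the co-receptor gene *Lrp5* (log2FC -0.41) were lower, while the other co-receptor gene, *Lrp6*, did not pass (adjusted p = 1).

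TGF-beta ligands and receptors differed by isoform, with 4 of 17 genes of the TGF-beta and BMP list called higher and 3 lower. The share called was 41.2%, against 16.6% of all genes tested. *Tgfb3* had 257, 345, 292 and 346 CPM in GFP+ and 75.3, 51.4, 82.6 and 110.3 CPM in tdTomato+ cells (log2FC 1.99), and *Tgfb2* had 61.5, 62.7, 56.5 and 80.03 CPM and 14.9, 4.64, 19.7 and 27.8 CPM (log2FC 2.14). *Tgfb1* went the other way, with 12.05, 8.36, 17.0 and 8.56 CPM and 34.5, 37.2, 30.4 and 37.3 CPM (log2FC -1.64 ± 0.22, adjusted p = 0.0015). The type I receptor gene *Tgfbr1* was higher (log2FC 0.91) and the type II receptor gene *Tgfbr2* lower (log2FC -0.90) in GFP+ cells. *Inhbb*, an activin subunit, was higher (log2FC 0.74) and the BMP target *Id3* lower (log2FC -1.77). Among these called genes, the groups overlapped only for *Id3*.

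The gene that drives Cre was itself higher in GFP+ luminal cells. By droplet digital PCR, another assay, the paper found its transcript in stroma alone among sorted fractions of lineage tracing mice. The 2 assays were not compared here. *Pdgfra* (ENSMUSG00000029231.15, chr5:75152292-75198215) had 13.9, 28.7, 16.4 and 10.3 CPM in GFP+ and 5.06, 2.49, 6.47 and 3.29 CPM in tdTomato+ libraries, which did not overlap (log2FC 1.95 ± 0.35, adjusted p = 0.0039), and these values came from 119 to 261 counts and 37 to 87 counts. *Pdgfra* amounted to 11.5%, 42.5%, 35.9% and 23.2% of the sum of the other 11 fibroblast genes in GFP+ luminal cells, to 26.1%, 33.6%, 6.77% and 40.5% in tdTomato+ luminal cells and to 3.3% to 6.13% in GFP+ stroma. In GFP+ stroma *Pdgfra* was at 1770, 1630, 1880 and 1970 CPM. The collagen gene *Col1a1* had 26.5, 8.92, 8.63 and 8.82 CPM and 3.02, 0.74, 17.8 and 0.512 CPM, and the proteoglycan gene *Dcn* 16.1, 11.7, 3.91 and 2.85 CPM and 5.17, 3.90, 9.27 and 2.60 CPM, groups that overlapped (adjusted p = 0.082 and 0.52). The 11 tested fibroblast genes had log2FCs from 0.463 to 3.01 with a median of 1.92, so *Pdgfra* lay near the middle of its list. The sum of the fibroblast list in GFP+ cells was 5.55-fold, 9.72-fold, 0.61-fold and 4.79-fold that of tdTomato+ cells in mice 1 to 4.

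Of the genes at or beside *Pdgfra* and the reporter locus, 2 of 6 tested were called (33.3%, against 16.6% of all genes tested). They were *Pdgfra* itself and its neighbour *Kit*. The position of the Cre insertion is not given in the sources used here. *Chic2*, on the other side of *Pdgfra*, had a log2 fold change of -0.03 (adjusted p = 0.85). The noncoding transcript of the reporter locus, *Gt(ROSA)26Sor*, had 6.09, 6.91, 4.79 and 4.58 CPM and 1.80, 1.75, 3.20 and 2.73 CPM without passing (adjusted p = 0.076), and it overlaps *Thumpd3* on the opposite strand, which had a log2 fold change of -0.21 (adjusted p = 0.1). *Setd5*, next to it, did not pass (adjusted p = 1).

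In the PDGF and FGF list 3 of 13 tested genes were called, all higher (23.1%, against 16.6% of all genes tested). *Pdgfc*, a ligand of PDGFRα, had 64.9, 79.2, 72.9 and 52.9 CPM in GFP+ and 29.0, 19.8, 28.8 and 28.9 CPM in tdTomato+ cells (log2FC 1.34 ± 0.16, adjusted p = 0.0011), while the ligand genes *Pdgfa*, *Pdgfb* and *Pdgfd* were not called (adjusted p = 0.72, 0.061 and 0.72). *Fgfr3* (log2FC 1.75) and the FGF feedback inhibitor *Spry2* (log2FC 1.33) were higher. *Fgfr2* had 331, 122, 519.7 and 87.7 CPM and 1346, 1734, 1259 and 1333 CPM, a log2 fold change of -2.76 that just missed the threshold (adjusted p = 0.011), and its annotated span holds *Dmbt1* on the opposite strand (log2FC -3.67, adjusted p = 0.0111).

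Of 23 luminal transcription factor genes, 8 were called higher and 7 lower (65.2% called, against 16.6% of all genes tested). Besides *Elf5*, *Ehf* and *Sox10*, the genes higher in GFP+ cells were *Foxc1* (45.4, 52.9, 50.5 and 85.6 CPM against 11.6, 5.86, 21.5 and 29.0 CPM; log2FC 1.94), *Tfap2c* (log2FC 1.90), *Nfib* (log2FC 1.35), *Cebpb* (log2FC 1.20) and *Bcl11a* (log2FC 2.56). *Gata3*, required for luminal fate, was lower (273, 305, 354 and 297 CPM against 439, 613, 364 and 538 CPM; log2FC -0.65), as were *Runx1* (log2FC -0.63), *Tfap2b* (log2FC -0.87), *Spdef* (log2FC -1.77) and *Myb* (log2FC -1.44), besides *Foxa1* and *Tbx3*. The *Gata3* and *Runx1* changes were the smallest of the 7, and *Grhl2*, a factor of epithelial junctions, did not pass (log2FC 0.10 ± 0.08, adjusted p = 0.37).

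Innate defence genes were higher in GFP+ cells, with a median log2FC of 1.96. Among the 11 tested, 8 were called (72.7%, against 16.6% of all genes tested). Without mouse 1, and also without mouse 4, the count was 1. The siderophore-binding lipocalin gene *Lcn2* had 742, 1198, 579 and 694 CPM in GFP+ and 168.2, 62.4, 167.7 and 179.5 CPM in tdTomato+ cells (log2FC 2.49), and the complement gene *C3* had 506, 182, 329.5 and 696 CPM and 127, 20.1, 110.1 and 167 CPM (log2FC 2.18). The receptor genes *Tlr2* (log2FC 1.42) and *Tlr4* (log2FC 0.98), the lipopolysaccharide-binding protein gene *Lbp* (log2FC 2.17) and the immunoglobulin transporter gene *Pigr* (log2FC 1.64) were higher too, along with *Cd14* and *Ltf*. Of 12 chemokine and NF-kB genes, 3 were called higher, *Cxcl2* (log2FC 2.57), *Cxcl16* (log2FC 1.01) and *Cx3cl1* (log2FC 1.05), and the cytokine gene *Il33* was lower (log2FC -1.96). These calls made up 33.3% of the 12. Of 13 interferon and MHC class I genes, 1 was called (7.69%, against 16.6% of all genes tested). It was the factor gene *Irf1*, with 53.2, 52.3, 81.9 and 48.5 CPM and 109, 186, 148 and 98.8 CPM (log2FC -1.18 ± 0.15, adjusted p = 0.0011). *H2-K1* and *H2-D1*, closely similar copies between which reads can be split, had log2 fold changes of -0.57 and -0.61 (adjusted p = 0.042 and 0.047).

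Integrin and laminin genes were called in both directions, 3 of 16 higher and 3 lower (37.5% called, against 16.6% of all genes tested). The laminin alpha chain genes differed, with *Lama3* at 124.1, 144, 65.4 and 159 CPM in GFP+ and 32.6, 20.4, 19.6 and 54.2 CPM in tdTomato+ cells (log2FC 2.00) and *Lama5* at 380.1, 279, 573 and 299.6 CPM and 769.8, 1041, 1068 and 985 CPM (log2FC -1.38). *Itgb8*, which activates latent TGF-beta, was higher (log2FC 2.29), and *Itga3* (log2FC -0.56) and *Itgb4* (log2FC -0.46) were lower. *Itga6*, which encodes CD49f of the sort gate, did not pass (log2FC -0.34 ± 0.10, adjusted p = 0.028).

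Of 12 lipid synthesis genes, 2 were called higher and 6 lower (66.7% called, against 16.6% of all genes tested). *Scd1*, a fatty acid desaturase, had 598, 955, 561 and 867 CPM in GFP+ and 240.2, 196, 222 and 406 CPM in tdTomato+ cells (log2FC 1.503), and the related *Scd2* had 33.6, 14.2, 40.7 and 28.3 CPM and 87.4, 119.7, 91.9 and 218 CPM (log2FC -2.12). *Acaca*, which commits carbon to fatty acids, was higher (log2FC 0.85), *Acly* was lower (log2FC -0.55) and *Fasn* did not pass (log2FC -0.19). The sterol pathway genes *Srebf2* (log2FC -0.64), *Hmgcs1* (log2FC -0.81) and *Sqle* (log2FC -0.86) were lower in GFP+ cells of all 4 mice.

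Proliferation genes varied widely between mice. *Mki67* had 44.7, 60.4, 284 and 191 CPM in GFP+ and 16.9, 64.4, 102 and 97.5 CPM in tdTomato+ cells, with mice 3 and 4 highest in both groups, and was not called (adjusted p = 0.021). Of 18 cell cycle genes, 4 were called (22.2%, against 16.6% of all genes tested). They were *Ccna2* (log2FC 1.55), *Bub1* (log2FC 1.38), *Mcm5* (log2FC 0.92) and *Ccnd1*, which encodes cyclin D1 (log2FC 0.90), all higher. At an adjusted p of 0.05, 8 of the 18 were higher and 3 lower. *Ccna2*, with a mean of 5.53 CPM, overlaps *Exosc9* on the opposite strand, which had 18.8 CPM and was not called (adjusted p = 0.18). The GFP+ and tdTomato+ values overlapped for all 4 called genes. Of 12 tested immediate early and heat shock genes, which dissociation is known to induce, 0 were called by edgeR, 4 by DESeq2 and 4 by limma-voom. With edgeR 7 had an unadjusted p under 0.05 and 6 an adjusted p under 0.05, all higher in GFP+ cells, among them *Jun* (log2FC 0.77) and *Hspa1b* (log2FC 1.17), whose reads can be shared with *Hspa1a*. Their sum was lowest in the tdTomato+ library of mouse 2, at 2626 CPM, against 4574 to 7078 CPM in the other tdTomato+ and 5766 to 8960 CPM in the GFP+ libraries, and its part in the calls was not tested. Of 11 mitochondrial mRNAs, 1 was called (9.09%, against 16.6% of all genes tested), *mt-Nd5* (log2FC -0.60 ± 0.11, adjusted p = 0.0031).

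The same contrast in the 3 E+P-treated mice called 4513 genes (27.3%), and 1783 genes were called in the same direction in both settings, which is 65.0% of the calls in untreated and 39.5% of those in E+P-treated mice. In both settings, but in opposite directions, 39 genes were called. Whether called there or not, 2554 of the 2745 genes called in untreated mice had the same sign in E+P-treated mice. A direct test of the difference between the settings called 477 genes (2.88%), 300 with a larger and 177 with a smaller log2 ratio of GFP+ over tdTomato+ cells in untreated mice. This count was 34, 57 and 262 without E+P mouse 2, 3 or 1. It was 140, 255 and 859 without untreated mouse 1, 4 or 2. The 4513 calls were 3000, 1853 and 1949 without E+P mouse 1, 2 or 3. For the difference, 0 of the 10 progenitor genes and 0 of the 16 hormone-sensing genes were called by edgeR, with 4 and 2 at an unadjusted p under 0.05. DESeq2 called 3 and 0, and limma-voom 0 and 0. The log2 fold changes in E+P-treated mice had medians of 2.68 and -3.57. *Elf5* had a log2 fold change of 3.46 in E+P-treated mice (test of the difference, adjusted p = 0.072) and *Pgr* of -4.14 (0.34).

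**Figure D5:**
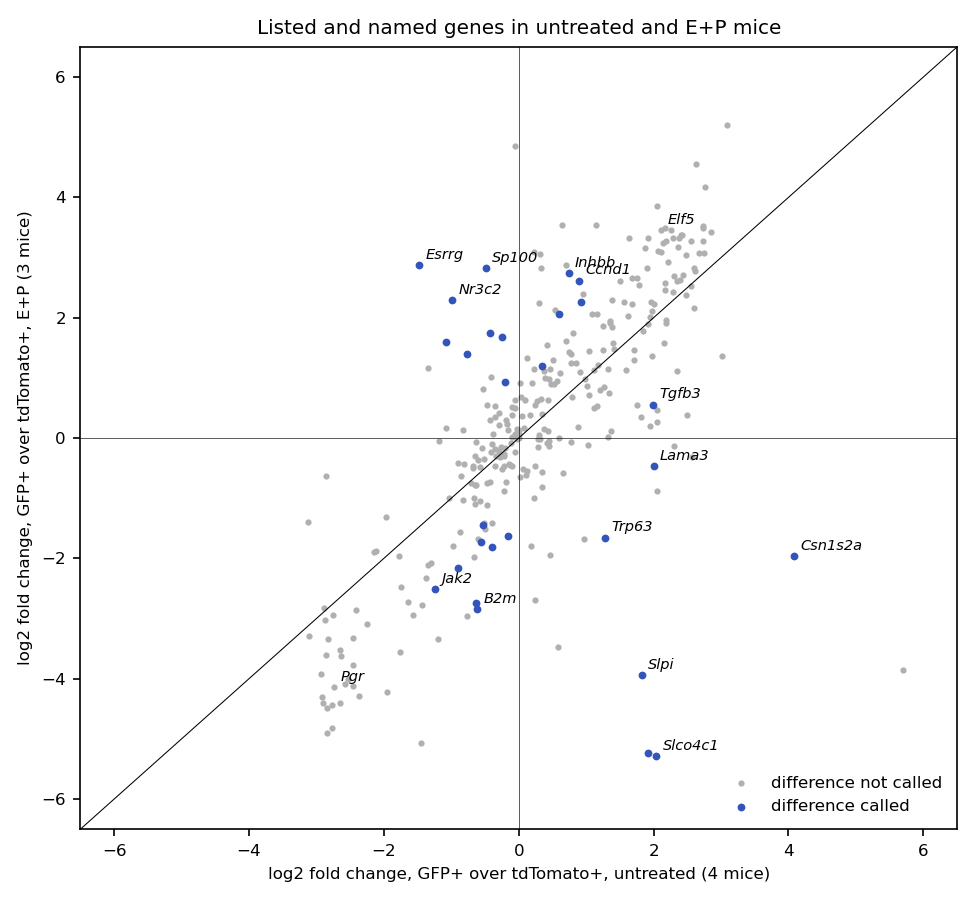
Log2 fold change of GFP+ over tdTomato+ luminal cells in 4 untreated mice (x axis) and 3 E+P-treated mice (y axis) for 314 listed or named genes, with the line of equal change and with the 28 genes called for the difference in blue. *Esrrg*, *Nr3c2* and *Sp100* lie above the line at the upper left, and *Slpi*, *Slco4c1*, *Lama3* and *Csn1s2a* lie below it at the right.

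The largest differences between the settings, by the rule for named genes, were those of *Slco4c1*, *Pla2g7* and *Slpi* on one side and *Esrrg*, *Sp100* and *Nr3c2* on the other. *Esrrg*, an estrogen-related orphan receptor, was lower in untreated GFP+ cells, with 13.9, 6.36, 14.2 and 11.1 CPM against 33.8, 24.2, 30.8 and 34.3 CPM (log2FC -1.47 ± 0.17, adjusted p = 0.0011). In E+P-treated mice 1 to 3 it was higher, with 8.31, 13.9 and 13.1 CPM against 0.734, 2.37 and 1.80 CPM (log2FC 2.87 ± 0.23, adjusted p = 3.6e-05), and the 2 effects differed (log2 difference -4.34 ± 0.29, adjusted p = 0.00043). The GFP+ values of the settings overlapped and the tdTomato+ values did not. *Nr3c2*, the mineralocorticoid receptor, had 31.2, 37.4, 46.4 and 31.4 CPM and 77.3, 72.6, 64.3 and 72.4 CPM untreated and 19.7, 29.5 and 28.4 CPM and 4.59, 7.40 and 4.09 CPM with E+P (log2 difference -3.28 ± 0.27, adjusted p = 0.00043).

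*Sp100*, a nuclear body protein gene, followed the same order (log2 difference -3.31 ± 0.34, adjusted p = 0.0011) and was not called in untreated mice (adjusted p = 0.1). *Slpi*, a secreted protease inhibitor, had 0.623, 6.80, 2.52 and 4.06 CPM and 0.291, 0.337, 1.12 and 1.92 CPM untreated and 8.09, 1.06 and 1.51 CPM and 66.4, 39.2 and 22.8 CPM with E+P (log2 difference 5.76 ± 0.81, adjusted p = 0.0057). *Slco4c1* and *Pla2g7* stayed at or below 0.831 CPM in every untreated library and reached 22.8 and 27.4 CPM in tdTomato+ libraries of E+P-treated mice, so their differences (7.33 and 7.14) rest on untreated values near the level of 3 counts.

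Several genes described above belong to the 477. *Lama3* was higher in untreated GFP+ cells but had 29.4, 21.1 and 22.4 CPM in GFP+ and 42.8, 31.1 and 27.4 CPM in tdTomato+ cells with E+P (log2 difference 2.46 ± 0.28, adjusted p = 0.0017). *Tgfb3* had a smaller change with E+P, a log2FC of 0.55 (log2 difference 1.44 ± 0.24, adjusted p = 0.0085). *Inhbb* changed more with E+P, at 2.74 (log2 difference -1.995 ± 0.20, adjusted p = 0.00096), as did *Ccnd1*, at 2.62 (log2 difference -1.72 ± 0.19, adjusted p = 0.0011). *Jak2* fell further with E+P, to a log2FC of -2.51 (log2 difference 1.27 ± 0.20, adjusted p = 0.0052). *B2m*, the shared subunit of MHC class I, had 229, 120.1, 199.5 and 224 CPM and 344, 196, 239 and 415 CPM untreated and 654, 261 and 338 CPM and 3022, 2300 and 3031 CPM with E+P (log2 difference 2.23 ± 0.25, adjusted p = 0.0018). *Pdgfra* had 3.60, 7.31 and 7.83 CPM and 4.86, 5.22 and 5.68 CPM in the E+P libraries, which overlapped, and the difference from untreated mice did not pass (log2 difference 1.74 ± 0.53, adjusted p = 0.076). Treated and untreated mice are different animals, and 8 of the 18 cell cycle genes were among the 477.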

How the data were processed

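Total RNA from sorted cells was made into stranded low-input libraries after ribosomal depletion and sequenced in paired-end mode. The authors deposited read counts per gene, not normalized. Per the labels and methods, reads were aligned and counted with STAR 2.5.2a on GRCm38.p5. The GENCODE release and the strand setting of the counting are not given in the sources used here. Symbols and positions came from GENCODE M21, which held 50376 of the 50600 gene IDs. Libraries were grouped by their titles, and GFP+ and tdTomato+ libraries with the same mouse identifier and number in the title were taken as 1 mouse. Deviations from the group means correlated between the libraries of a mouse at 0.31, 0.0563, 0.0907 and 0.368 for mice 1 to 4, against a mean of -0.0685 between different mice.

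Counts were scaled by TMM and filtered with filterByExpr, and 16538 genes were tested in R 4.3.3 with the robust quasi-likelihood test of edgeR 4.0.16, two-sided. All 14 luminal libraries shared a fit with a term for each mouse, a GFP+ effect in untreated mice and a GFP+ effect in E+P-treated mice. The difference between the effects was tested as a contrast. P values were adjusted by Benjamini-Hochberg and the threshold was 0.01. The SE of a log2 fold change is its size divided by the square root of F. Log2 CPM used for correlations had a prior count of 2. Tested on simulated data for the untreated comparison with 200 changed genes, the fit called 54% of 2-fold and 78% of 4-fold changes and 0 unchanged genes, and for the difference 20%, 68% and 2. The simulated counts held no differences between mice and left out the quasi-likelihood spread, so these rates may not hold for the real libraries.

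Genes named are up to 12 in each direction with the largest change among called genes with a symbol, a mean of 10 CPM or more in either group and all 4 mice on the same side, members of 27 lists (327 genes), and up to 3 in each direction for the difference. The members and lists were chosen with earlier results of these data known. Alternatives were no mouse block, DESeq2 size factors, library size only, no low-count filter, DESeq2 1.42.0, voom of limma 3.58.1, an adjusted p of 0.05, only the libraries compared, and leaving out each mouse. A symbol with several gene IDs was read from the most abundant tested ID. Stromal libraries were used only for the fibroblast levels. The paper gives RNA quality only as a range over the series, from heavily degraded to intact, with fragmentation time shortened or omitted for poorer RNA. RNA quality of single libraries was not analysed here, so a difference in it between groups or mice was not tested. Values of 2 list members are not reported here.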

Additional observations from a re-analysis of the deposited data

Results flagged for a closer look

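In groups of 4 libraries, a value was singled out where its gap to the nearest other library exceeded the share of the group's range that Dixon's test allows, which chance alone does in about 1 in 20 groups. Of 361 gene and group combinations checked, 30 were singled out, 10 of them for mouse 3 and 12 for mouse 4.

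In GFP+ cells mouse 4 was highest for *Elf5* (309 CPM), *Lalba* (41.5), *Csn1s1* (152), *Csn2* (92.6) and *Csn1s2a* (8.56) and lowest for *Slc16a7* (5.44 CPM). Mouse 3 was highest for *Wnt5a* (86.3), *Irf1* (81.9), *Mcm5* (14.7) and *Fam43a* (35.7 CPM) and lowest for *Itga2* (40.3) and *Wfdc18* (278 CPM). Mouse 2 was highest for *Cxcl2* (17.0), *Ccn2* (708) and *Setd5* (1100 CPM), and mouse 1 for *Col1a1* (26.5 CPM). In tdTomato+ cells mouse 4 was highest for *Btn1a1* (98.5), *Csn1s1* (24.7), *Csn2* (19.8), *Sqle* (64.7), *Vwf* (142) and *Sp100* (15.5 CPM). Mouse 3 was highest for *Stat5a* (153), *Col1a1* (17.8) and *Thumpd3* (43.5 CPM) and lowest for *Erbb2* (153 CPM). Mouse 2 was lowest for *Pdgfc* (19.8) and *Lcn2* (62.4 CPM), and mouse 1 was highest for *Fos* (1450) and lowest for *Inhbb* (269 CPM).

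Among summed lists, mouse 3 was highest in tdTomato+ cells for the fibroblast list (102 CPM) and the muscle and pericyte list (67.3 CPM), and mouse 4 for the endothelial list (147 CPM). In GFP+ cells mouse 4 was highest for muscle and pericyte genes (55.1 CPM) and lowest for PDGF and FGF genes (546 CPM), and mouse 2 was highest for chemokine and NF-kB genes (1040 CPM).

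The GFP+ effect differed between untreated and E+P-treated mice, by the quasi-likelihood test of edgeR at an adjusted p under 0.01, for 18 of the genes described. The untreated minus E+P log2 difference was 7.33 for *Slco4c1*, 7.14 for *Pla2g7*, 6.06 for *Csn1s2a*, 5.76 for *Slpi*, 2.94 for *Trp63*, 2.46 for *Lama3*, 2.23 for *B2m*, 1.44 for *Tgfb3*, 1.27 for *Jak2*, 1.26 for *Krt7*, 1.17 for *Itga3* and 0.916 for *Erbb2*. It was -1.34 for *Mcm5*, -1.72 for *Ccnd1*, -1.995 for *Inhbb*, -3.28 for *Nr3c2*, -3.31 for *Sp100* and -4.34 for *Esrrg*.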

How the results depend on the processing

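For untreated mice 2745 genes were called, and 2547 without the mouse block, a paired design being kept as the main result because both libraries of a pair came from the same mouse. With only the 8 untreated libraries in the fit and the replicate block kept, 745 were called, with fewer residual degrees of freedom and 14941 genes tested, and 731 of these were among the 2745. At an adjusted p of 0.05 there were 5496. Leaving out 1 mouse gave 915 to 2333 calls, with 915 without mouse 1 and 940 without mouse 4. DESeq2 size factors, library size only, no low-count filter, DESeq2 and voom gave 2736 to 4064. With library size only, the median log2 fold change over genes was 0.0738, and 0.202 for E+P-treated mice and -0.129 for the difference, whose share of positive calls was then 44.2% in place of 62.9%. For the difference no low-count filter and leaving out mice also changed that share, to 54.9% and to between 55.9% and 76.7%. For E+P-treated mice 4513 became 6913 at 0.05 and 1853 to 3000 without 1 mouse, and the share of calls higher in GFP+ cells was 61.8% in place of 44.2% with library size only. For the difference, 477 became 1271 with DESeq2, 909 with no low-count filter, 1454 at 0.05 and 34 to 859 without 1 mouse, and 376 with no replicate block. Of the 128 named genes called, all kept their sign in each of the 12 alternatives that tested them. The alternative of an adjusted p of 0.05 is the same fit, so it could not change a sign. The call was lost for 36 without the mouse block, 80 with only the 8 libraries, 50 with no low-count filter, 10 with library size only, 3 with voom, 1 with DESeq2 and 1 with its size factors. The cause of these losses was not tested. Hormone-sensing calls were 13 with DESeq2, 12 with voom and 0 with no low-count filter or only the 8 libraries, and progenitor calls were 4 under each of the last 2.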
